A study of Caenorhabditis elegans with 2 samples.

Results

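The regions described here are the 570 stretches of chromosome III among the 3000 strongest B0310.2-GFP regions in Caenorhabditis elegans embryos. They were chosen by the pooled signal of the deposited ce11 list, which holds 30000 regions including background, by taking ranks 1 to 3000 and keeping those on chromosome III. B0310.2 is annotated in RefSeq as a putative zinc finger protein with a C2H2-type domain. Both samples came from strain OP642, which carries the unc-119 (tm4063) mutation on III and the transgene wgIs642. That transgene stably expresses B0310.2 with a GFP-FLAG tag at its C-terminal end. Synchronised early embryos of mixed sex were collected 0 hours after egg bleaching, and chromatin was precipitated from whole organisms with an antibody against GFP. The 2 samples are biological replicates 1 and 2, and no other condition was measured. The labels name neither the promoter of the transgene nor its site of insertion. No untagged or input sample was analysed here. Read totals were not given in the files used, so the depth behind each value is unknown.

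Nematode autosomes are holocentric, with no single centromere. Each has a gene-dense centre in which housekeeping genes are frequent, flanked by arms with more repeats and more meiotic recombination. Genes for tRNAs, some snRNAs and other small RNAs are transcribed by RNA polymerase III, tRNA genes from promoter elements inside the gene. Spliced leader genes, also short, give the RNAs that are trans-spliced onto the 5' ends of worm mRNAs.

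The summit, the position of highest signal within a region, was the point used for every location below. A region was placed at a promoter when its summit lay from 1000 bp before to 300 bp after the annotated 5' end of a protein-coding transcript. It was placed at a small RNA gene when the summit lay within 200 bp of a tRNA gene, tRNA pseudogene, snoRNA gene or snRNA gene. Of the 570 regions, 224 lay at a promoter and 47 at a small RNA gene, with 11 counted in both. Another 5 lay within 200 bp of a miRNA gene, 1 of them also at a promoter, and 306 had none of these features.

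The DNA at the strongest summits of each kind was read from the RefSeq genome WBcel235, the assembly that ce11 also stands for. Windows of 101 bp centred on the summit are given, the 2 strongest of each kind whose window held no annotated UTR base, 5' to 3' on the strand of the named gene (on the plus strand for introns). Capitals mark 5 words of 6 letters on either strand: the word AGAGCG, the word AGCGCG, the word GCGCGC, the word CGAACC, then the word GAACCC. They were listed because earlier results of these data had shown them.
promoter, K12H4.5, chrIII:8043933-8044033, plus strand, rank 3: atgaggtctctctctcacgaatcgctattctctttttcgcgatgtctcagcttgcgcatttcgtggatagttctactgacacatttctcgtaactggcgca
promoter, atx-2, chrIII:10461281-10461381, plus strand, rank 26: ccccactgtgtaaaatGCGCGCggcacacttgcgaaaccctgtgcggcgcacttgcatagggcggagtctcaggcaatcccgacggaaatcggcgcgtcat
tRNA-Trp gene sup-5, chrIII:8678505-8678605, minus strand, rank 25: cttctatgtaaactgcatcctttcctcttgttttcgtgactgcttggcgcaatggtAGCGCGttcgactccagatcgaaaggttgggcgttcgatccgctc
tRNA-Leu gene C14B9.t2, chrIII:8109582-8109682, plus strand, rank 62: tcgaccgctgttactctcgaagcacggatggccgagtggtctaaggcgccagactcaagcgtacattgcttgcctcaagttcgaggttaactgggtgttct
snoRNA gene C05D2.15, chrIII:5602184-5602284, minus strand, rank 23: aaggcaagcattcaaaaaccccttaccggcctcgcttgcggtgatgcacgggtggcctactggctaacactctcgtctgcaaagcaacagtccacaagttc
snoRNA gene ZK643.9, chrIII:8937644-8937744, plus strand, rank 96: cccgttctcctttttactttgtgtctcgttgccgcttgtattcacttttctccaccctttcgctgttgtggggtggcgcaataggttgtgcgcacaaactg
snRNA gene W05B2.8, chrIII:10989769-10989869, plus strand, rank 40: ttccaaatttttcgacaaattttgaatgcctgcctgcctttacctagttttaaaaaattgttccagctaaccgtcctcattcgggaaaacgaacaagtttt
snRNA gene F54D8.7, chrIII:5080864-5080964, minus strand, rank 167: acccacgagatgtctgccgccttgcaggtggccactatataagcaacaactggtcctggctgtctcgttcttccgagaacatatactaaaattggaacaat
intron of M01F1.8, chrIII:3500013-3500113, plus strand, rank 19: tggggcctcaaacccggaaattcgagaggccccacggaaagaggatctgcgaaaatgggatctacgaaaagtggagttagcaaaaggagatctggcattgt
intron of tba-7, chrIII:11371408-11371508, plus strand, rank 75: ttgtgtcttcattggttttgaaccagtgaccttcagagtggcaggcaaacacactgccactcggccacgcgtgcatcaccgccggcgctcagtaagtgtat
Only the windows at atx-2 and sup-5 held any of these words. The word in the sup-5 window lay inside the tRNA gene, which occupies chrIII:8678497-8678568.

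The pooled signal of the 570 regions ran from 88.3 to 912, with a median of 104, against a median of 106 for the regions of the other chromosomes. Signal is given on the authors' own scale. At the edge of the selection, the weakest members on III were rank 2993 with a signal of 88.32 and rank 2994 with 88.31. The nearest regions of III left outside were rank 3002 with 88.22 and rank 3003 with 88.21. Of the 570, 240 (42.1%) had a −log10 q of at least the value that stands for q = 0.05, and 146 (25.6%) reached that for q = 0.01, against 44.5% and 26.5% on the other chromosomes. The authors' list thresholded by IDR, a measure of reproducibility between replicates, held 642 regions, identical to pooled ranks 1 to 642. Of these, 120 lay on III.

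Chromosome III held 19.0% of the 3000 regions (exact 95% binomial interval 17.6 to 20.5%; intervals here cover counting error only). The chromosome makes up 13.7% of the nuclear sequence, 13.2% of the protein-coding genes and 12.8% of the bases within promoters. Shares of that size would have placed 412, 397 and 383 regions there. The density was 41.4 regions per Mb on III, the highest of the 6 nuclear chromosomes, followed by 39.7 on I, 33.6 on II, 29.4 on X, 23.8 on IV and 18.2 on V. Chromosome I stood above its length share too, with 598 regions, or 19.9% (18.5 to 21.4%) of the regions on 15.0% of the sequence. The intervals of I and III overlapped, and both lay above their shares of sequence and of genes. Per 100 protein-coding genes, III carried 21.6 regions, I 20.8 and X 19.1, while V carried 7.61. Because the chromosome was picked for its excess, these shares are a description and no test was made.

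**Figure D1:**
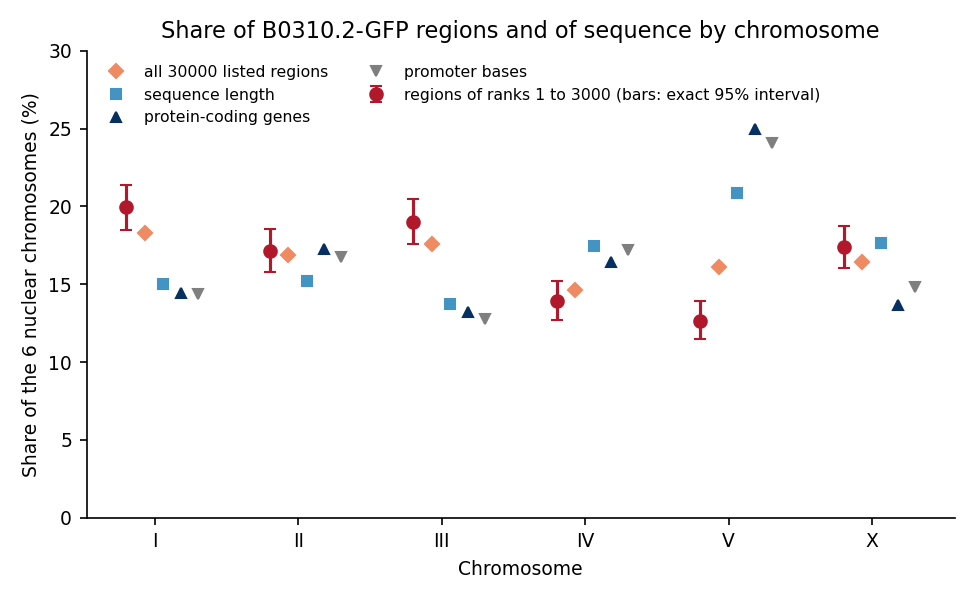
Share of regions, of all listed regions, of sequence length, of protein-coding genes and of promoter bases (y axis, %) held by each of the 6 nuclear chromosomes (x axis); error bars are exact 95% binomial intervals for the regions of ranks 1 to 3000. The shares of regions on I (19.9%) and III (19.0%) sit above the 4 other shares plotted for them, and that on V (12.7%) below its own.

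The share on III varied little with rank. It was 18.7% of ranks 1 to 642, 17.7% of ranks 643 to 1500 and 19.9% of ranks 1501 to 3000. Below the selection it was 18.6% of ranks 3001 to 6000, 17.9% of ranks 6001 to 15000 and 17% of ranks 15001 to 30000. The whole list of 30000 regions, which by its title includes background, had 5283 regions (17.6%) on III, which would have placed 528 in the selection. On the same scale, the share on V was 11.8% of ranks 1 to 642 and 17.1% of ranks 15001 to 30000. Of the regions listed on each chromosome, 10.8% on III, 10.9% on I, 10.5% on X and 7.85% on V fell in ranks 1 to 3000. Binding and background cannot be told apart in these lists, and their parts in the excess on III were not tested.

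Each replicate's own list placed a similar share on III. Among its 3000 strongest regions, replicate 1 had 557 (18.6%) on III and replicate 2 had 586 (19.5%). Among the 642 strongest, the numbers were 108 (16.8%) and 122 (19.0%). Chromosome I differed more between the replicates at that depth of list, with 132 regions in replicate 1 and 100 in replicate 2.

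The features under the regions of III differed with rank. In ranks 1 to 642, 57 of 120 regions (47.5%) lay at promoters and 29 (24.2%) at small RNA genes. In ranks 643 to 1500 these shares were 40.1% and 5.92%, and in ranks 1501 to 3000 they were 35.6% and 3.02%. Regions near small RNA genes made up 8.25% of the members there and 22.3% on X, where tRNA genes are most numerous. With those regions left out on every chromosome, III held 523 of the remaining 2619 (19.97%). By kind, III had 212 of all 1127 regions at promoters away from small RNA and miRNA genes (18.8%) and 306 of the 1467 regions with none of the features (20.9%). It had 30 of 265 at tRNA genes or pseudogenes (11.3%, interval 7.77 to 15.8%). At snoRNA genes it had 7 of 84 (8.33%, 3.42 to 16.4%). Both intervals spanned the 13.7% of the sequence that III makes up. At snRNA genes III had 10 of 32 (31.25%, 16.1 to 50.01%), above that share. That interval treats the regions as independent, though the 10 lay at 8 genes, some of them near-identical copies. Of the 129 nuclear snRNA genes, 13 lie on III. At miRNA genes III had 5 of 25 (20%, 6.83 to 40.7%), with an interval that spanned the share of the sequence. Measured against the available DNA, the 212 promoter regions of III away from small RNA and miRNA genes came to 59.1 per Mb of promoter. The same kind came to 56.3 on I and 22.0 on V. Its 306 regions with none of the features came to 30.01 per Mb outside promoters, against 28.0 on I and 12.7 on V.

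Along the chromosome, regions and protein-coding genes were spread differently. Taking the centre as 25 to 75% of the length and the arms as the rest, the centre held 289 of the 570 regions (50.7%, interval 46.5 to 54.9%) but 59.2% of the protein-coding genes and 57.5% of the promoter bases of III. The left arm held 20.9% of the regions with 20.1% of the genes. The right arm held 162 (28.4%, interval 24.8 to 32.3%) with 20.7% of the genes. Density was 34.5 regions per Mb on the left arm, 41.9 in the centre and 47.0 on the right arm, while genes ran at 154, 227 and 159 per Mb. Per 100 genes there were 22.4 regions on the left arm, 18.5 in the centre and 29.6 on the right arm. Genes of the arms were longer, with a median of 2827 bp on the left and 3052 bp on the right against 2088 bp in the centre. The list of all ranks was spread differently, with 26.4% on the left arm, 46.3% in the centre and 27.3% on the right arm.

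What the regions sat on also shifted with position. In the centre, 42.9% lay at promoters and 11.1% at small RNA genes. On the left arm these shares were 36.1% and 6.72%, and on the right arm 35.2% and 4.32%. Introns outside promoters held 30.3% of the left-arm regions, 31.5% of the right-arm regions and 21.5% of the central ones. As on III, the centre held a smaller share of regions than of genes on I (45.5% and 58.0%) and IV (45.6% and 59.4%). On II the shares were 49.0% and 52.0%, with an interval for the regions (44.6 to 53.4%) that spanned the share of genes. On X they were close, at 53.4% and 52.9%. The centre of V went the other way, with 57.9% of its regions and 52.5% of its genes. The right arm of II, like that of III, was dense for its genes, with 25.4 regions per 100 genes. The left arm of I was denser than either, with 33.97 regions per 100 genes, the highest of any arm.

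In 14 equal bins of 0.985 Mb, counts on III ran from 21 to 59 regions. The lowest lay between 14.3 and 21.4% of the length, with 21 regions among 145 genes. The highest lay between 85.7 and 92.9%, with 59 regions among 129 genes, the lowest gene count of any bin. Its 45.7 regions per 100 genes compared with 13.4 in the bin just right of the midpoint, where 28 regions lay among 209 genes. That bin of 59 also held 15 regions of ranks 1 to 642, the highest of the 14 bins.

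**Figure D2:**
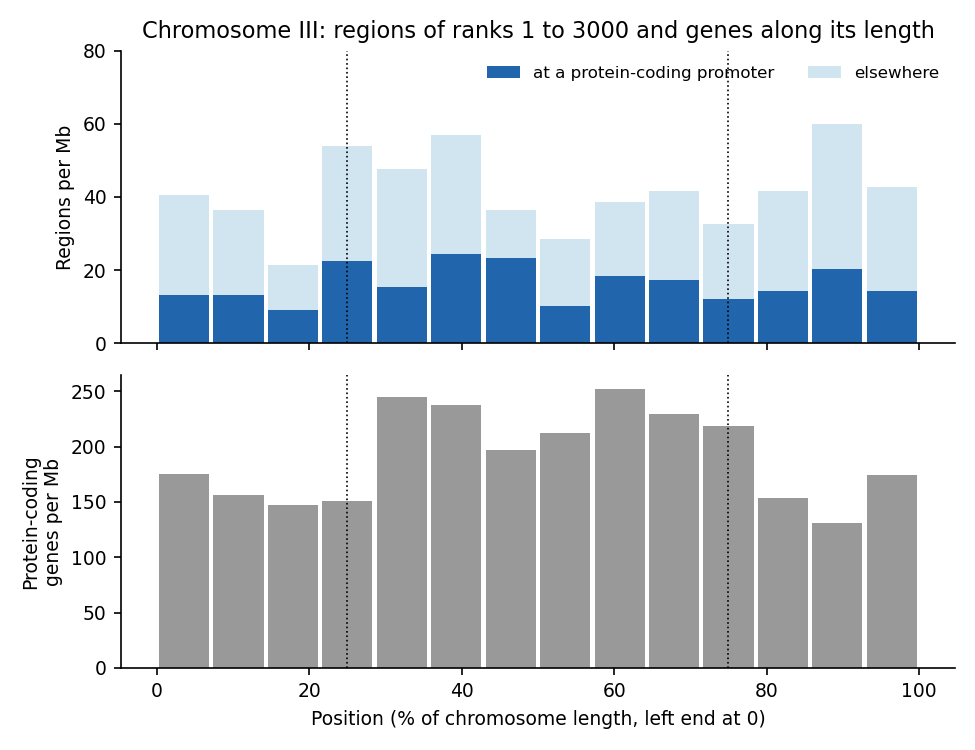
Regions per Mb in 14 bins along chromosome III (upper panel, split by whether the summit lies at a protein-coding promoter) and protein-coding genes per Mb (lower panel), against position as % of chromosome length; dotted lines mark 25 and 75%. The bin with the most regions (59, between 85.7 and 92.9%) has the fewest genes (129).

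Part of the high bin came from 2 clusters. The window of 50 kb with the most regions on III, chrIII:12570001-12620000, held 16, more than any such window of the other chromosomes, whose maxima were 14 on II, 11 on I and IV, and 9 on V and X. It contained only 4 protein-coding genes: gldi-8, annotated as a C2H2-type domain protein, epc-1, an enhancer of polycomb homologue, Y111B2A.12, a WD repeat protein, and aakg-1, a gamma subunit of AMP-activated kinase. Of the 16 summits, 14 lay within gene bodies and 5 at promoters, and none lay near a small RNA gene. The strongest were ranks 287 and 375, overlapping regions inside gldi-8, 73 and 280 bp upstream of an annotated transcript start within the gene. Both met the same region in each replicate (ranks 187 and 364). Rank 393 lay 36 bp inside an annotated 5' end of epc-1 and 858 bp upstream of Y111B2A.12. In this window 13 of the 16 regions were among the 3000 strongest of both replicates, against 46.3% of all 570. That count takes ranks 287 and 375 separately. It also takes ranks 393 and 2600 separately, which met the same region in each replicate (ranks 190 and 774). The next densest window, chrIII:11910001-11960000, held 12 regions, 10 of them in the 3000 strongest of both replicates. They lay in Y56A3A.7, annotated as a cut-like homeobox protein, npp-16, encoding a nuclear pore protein, znf-593, encoding a zinc finger protein, Y56A3A.22 and top-3. A window at chrIII:5000001-5050000 held 11 regions in and around klp-6, a kinesin-like gene, pcf-11, larp-1 and txbp-3. Some neighbouring summits belonged to overlapping regions: 95 of the 570 (16.7%) overlapped another member. With each summit within 500 bp of a stronger one joined to it, III kept 523 of 2797 regions (18.7%).

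Promoter regions on III touched 261 of its 2640 protein-coding genes (9.89%, interval 8.77 to 11.1%). Over all nuclear protein-coding genes the share was 6.87%, and chromosome I had 9.76%. Of the 224 promoter regions, 165 lay at the promoter of 1 gene, 54 at those of 2 genes and 5 at those of 3 or more, and 25 genes had several regions. Promoters of genes on opposite strands shared 51 of the regions (22.8%), as on I (22.1%) and V (23.0%), against 5.58% on X. Measured to the nearest annotated 5' end, the median summit was 166 bp upstream, and the middle of the distribution ran from 484 bp upstream to 5 bp inside. Upstream of the start lay 166 of the 224 (74.1%), close to the 76.9% of the promoter window that is upstream by definition. Within 350 bp upstream lay 98 (43.8%), in a stretch that makes up 26.9% of the window. Taking the nearest of several starts favours short distances, and its part in this was not tested.

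**Figure D3:**
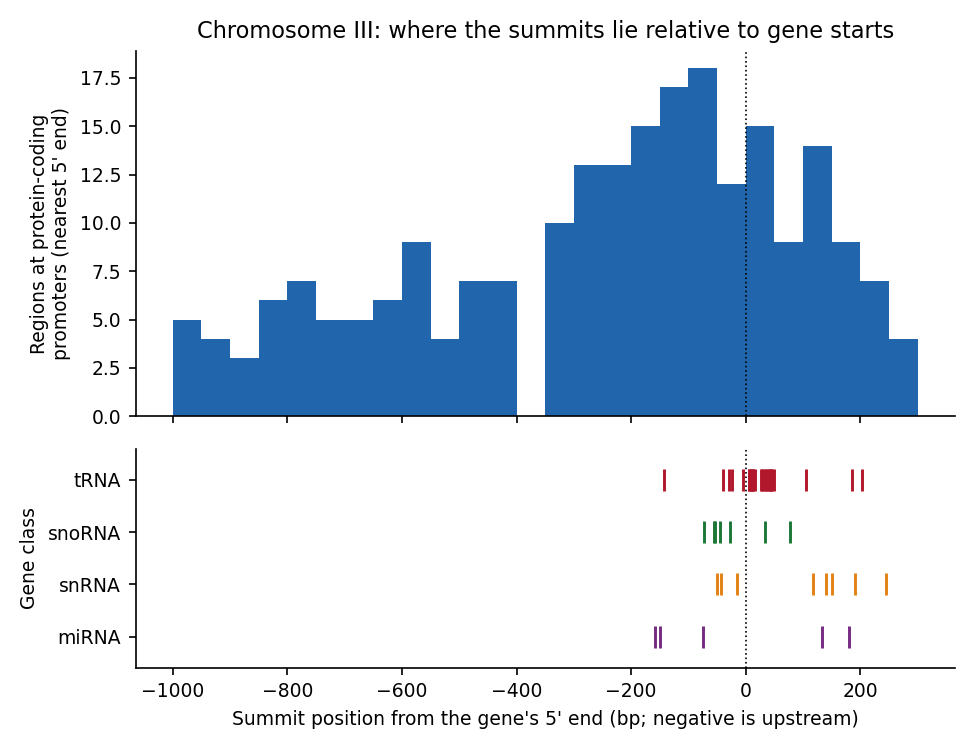
Summit positions on chromosome III relative to the 5' end of the gene, in bp, negative values upstream: counts of the 224 promoter regions in bins of 50 bp (upper panel) and single genes of each small RNA class with a region, 1 tick per gene (lower panel). Of the 224 promoter summits, 98 lie within 350 bp upstream; 20 of 28 tRNA ticks lie inside the gene and 5 of 7 snoRNA ticks before it.

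The strongest region of the chromosome was rank 3 of the whole list. Its signal was 912 in the pooled list, 279 in replicate 1 and 634 in replicate 2, and it ranked 3 in both. The summit, chrIII:8043983, lay 504 bp upstream of K12H4.5, whose product is uncharacterised, in intergenic DNA. The next promoter in strength, rank 26, lay 58 bp upstream of atx-2, which encodes the ataxin-2 homologue, an RNA-binding protein, and 780 bp upstream of ecps-1 on the other strand, named for the proteasome component Ecm29. Its signal was 475, from 153 in replicate 1 and 328 in replicate 2, with ranks 23 and 33. At rank 38, a summit lay 293 bp upstream of rpl-3, encoding a protein of the large ribosomal subunit, with ranks 49 and 35. These promoters stood among the first 50 of each replicate alone.

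Rank 58 lay 47 bp upstream of idhg-1, a subunit of mitochondrial isocitrate dehydrogenase, and 620 bp upstream of mlcd-1, encoding malonyl-CoA decarboxylase, with a signal of 384 and ranks 73 and 54. Rank 59 lay 951 bp upstream of cbp-1, the CBP/p300 histone acetyltransferase, at the far edge of the promoter window, with ranks 127 and 45. Rank 97 lay between hach-1, encoding a mitochondrial hydrolase of valine breakdown, and nmad-1, annotated as a DNA N6-methyladenine demethylase, with rank 58 in replicate 1 and a signal of 201 in replicate 2. Rank 110 lay between C16C10.4, annotated as the SAP18 subunit of a histone deacetylase complex, and rnf-121, a ubiquitin ligase, with ranks 185 and 98.

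Further promoters were strong in replicate 2 and weaker in replicate 1. C46F11.4, annotated as an RNA helicase, had pooled rank 151 with rank 1051 in replicate 1 and 122 in replicate 2. Y39E4B.6, annotated as a Smad nuclear-interacting protein, had ranks 903 and 128 with the summit 1 bp before its start. The region between tasp-1, a taspase homologue, and K01G5.10 ranked 877 and 145. The region upstream of R107.5 and cls-2, the latter encoding a microtubule-stabilising CLASP protein, ranked 5006 in replicate 1 and 147 in replicate 2, the widest gap among the 25 genes with the strongest promoter regions. That of xbp-1, whose protein acts in endoplasmic reticulum stress, ranked 756 and 203. Nearer agreement was seen at C34C12.9 (376 and 192), cox-5A (175 and 241), Y39A1C.1 (325 and 254) and swsn-3 (200 and 252), a subunit of the SWI/SNF remodelling complex. The promoter shared by sup-35 and Y48A6C.4 ranked 334 and 298. sup-35 encodes the maternally supplied toxin of the sup-35/pha-1 element, a selfish gene pair on III. tag-266, the last of the 25 genes named by strength, shared its region (ranks 885 and 205) with tag-267.

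Beside the share of 9.89% for all genes of III, 10 of the 16 gene lists examined had a higher share of members with a region and 6 a lower one. On the other chromosomes, where the share for all genes was 6.41%, 12 of the same lists were above it and 4 below. Most lists had under 20 genes on III, so their shares are imprecise. A region was counted for every gene whose promoter held its summit, also where the 5' end of another gene lay nearer. That was so for rps-12 (ska-3 nearer), rps-29 (snt-2 nearer) and cox-6B (Y71H2AM.20 nearer), all named below. Of 18 ribosomal protein genes on III, 5 (27.8%) had a promoter region: rpl-3, rpl-35 at rank 311, rps-12 at rank 549, rps-1 at rank 612 and rps-29 at rank 1019. On the other chromosomes it was 20 of 63 (31.7%). rps-12 ranked 13854 in replicate 1 and 383 in replicate 2, and rps-29 ranked 565 and 2864. Of 10 genes for the mitochondrial respiratory chain and ATP synthase, 4 had a region: cox-6A (rank 167), cox-5A (rank 223), cox-6B (rank 353) and atp-2, the beta subunit of ATP synthase (rank 830). The cox-6A summit also lay 16 bp upstream of the snRNA gene F54D8.7, and the 2 cannot be told apart. All 4 were within the 3000 strongest of both replicates. Elsewhere 8 of 32 such genes (25%) had a region, against 40% on III.

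Of 8 proteasome subunit genes on III, 3 had a region (37.5%), against 2 of 25 (8%) elsewhere. They were weak: rpn-3 at rank 1948, rpn-6.2 at rank 2374 and rpt-6 at rank 2523, none of them in the 3000 strongest of both replicates. The rpt-6 region was shared with his-72. The rpn-3 region was shared with hsp-110, a cytosolic chaperone gene with the nearer 5' end. Among 12 chaperone genes the other with a region was hsp-60, the mitochondrial chaperonin, at rank 356 with ranks 313 and 401, which makes 16.7% on III, against 15 of 53 (28.3%) elsewhere. Translation factors and aminoacyl-tRNA synthetases had 2 of 12 (16.7%), eif-3.D at rank 788 and eef-1A.1 at rank 1497, against 15 of 61 (24.6%) elsewhere. The splicing list had 2 of 13 (15.4%), prp-19 at rank 468 and rsp-8 at rank 1925, against 9 of 42 (21.4%). Other genes had the nearer 5' end at hsp-60 (Y22D7AL.10), eif-3.D (R08D7.4) and prp-19 (K10D2.5). The summit of rank 1497 lay 93 bp upstream of rfc-4 and 448 bp upstream of eef-1A.1. Of the 3 histone genes on III, his-72, encoding histone H3.3, had a region at rank 349, 199 bp inside its 5' end, with ranks 220 and 358. Elsewhere 20 of 79 histone genes (25.3%) had one.

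Among cytoskeletal genes 3 of 15 (20%) had a region, against 6 of 37 (16.2%) elsewhere: arx-3 (rank 1141), klp-7 (rank 1441) and tbg-1, encoding gamma-tubulin (rank 1623). The tbg-1 region was shared with rpac-19, the only one of 15 genes for RNA polymerases and general transcription with a region, and overlapped no listed region of replicate 1. Elsewhere 4 of 42 genes of that list had a region. Chromatin regulators had 2 of 11 (18.2%), against 9 of 29 (31.03%) elsewhere: mrg-1 at rank 845 and set-25, an H3K9 methyltransferase gene, at rank 2565. Of 18 genes for polarity, fate and division in the early embryo, knl-1 (rank 1302, kinetochore), sas-4 (rank 2009, centriole) and pie-1 (rank 2258, germline repressor) had a region, against 8 of 44 elsewhere. None of these 3 was in the 3000 strongest of both replicates, and pie-1 ranked 20995 in replicate 1 and 2317 in replicate 2. At mrg-1, sas-4 and tbg-1, the 5' ends of spcs-2, F10E9.11 and rpac-19 lay nearer to the summit. Of 12 listed homeobox genes on III, ceh-20, encoding a Hox cofactor, alone had a region (rank 2280), and none of 11 listed did elsewhere. The lists were drawn by gene name pattern or symbol, so these counts need not cover every homeobox gene. No region lay at the promoter of any of 4 programmed cell death genes, 14 ztf and nhr transcription factor genes, 14 cuticle collagen genes or 33 chemoreceptor genes on III. The corresponding counts elsewhere were 1 of 11, 10 of 280, 4 of 153 and 11 of 1286.

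Small RNA genes on III were marked at rates that depended on their class. Of 64 tRNA genes, 28 (43.8%, interval 31.4 to 56.7%) had a region within 200 bp, against 40.5% over all nuclear tRNA genes. None of 33 tRNA pseudogenes did (interval 0 to 10.6%), against 2.87% over all. Of 54 snoRNA genes 7 (13.0%, 5.37 to 24.9%) had a region, against 22.5% over all. Of 13 snRNA genes 8 (61.5%, 31.6 to 86.1%) had a region, against 20.9% over all, and of 27 miRNA genes 5 (18.5%, 6.30 to 38.1%), against 10.7%. The intervals for tRNA, snoRNA and miRNA genes spanned the share of the other chromosomes, so a difference was not detectable with this number of genes. For snRNA genes, the share elsewhere was 16.4% (19 of 116), outside the interval on III. That share differed by chromosome: it was 6 of 16 genes (37.5%, 15.2 to 64.6%) on II and 4 of 16 (25%, 7.27 to 52.4%) on I, whose intervals overlapped that of III, and 5 of 41 (12.2%) on IV and 4 of 40 (10.0%) on V, where none of the 12 sls-1 spliced leader genes had a region. These intervals treat each gene as independent, and 6 of the 13 snRNA genes on III are near-identical copies.

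**Figure D4:**
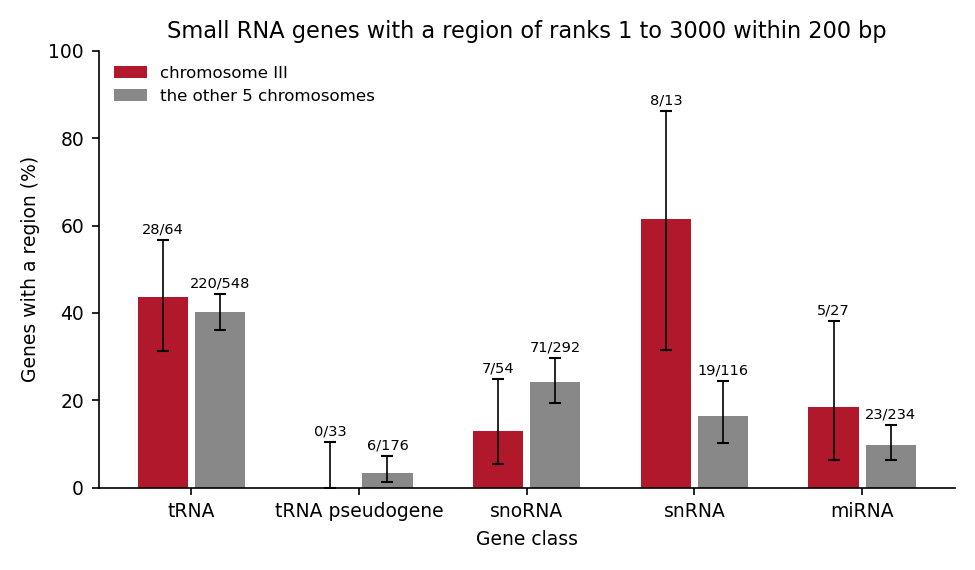
Share of genes (y axis, %) of each small RNA class with a region of ranks 1 to 3000 within 200 bp, on chromosome III and on the other 5 chromosomes; bars carry exact 95% binomial intervals and the counts of genes. The snRNA interval on III (31.6 to 86.1%) lies above the share elsewhere (16.4%), and the tRNA intervals (43.8% on III and 40.1% elsewhere) overlap.

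At 20 of the 28 tRNA genes with a region the summit lay inside the gene, at 5 upstream of it and at 3 past its far end. The strongest, rank 25, lay 13 bp inside sup-5, a tRNA-Trp gene known for its amber suppressor alleles, which sits within the gene fli-1. Its signal was 478, from 152 in replicate 1 and 326 in replicate 2, with ranks 24 and 34. The tRNA-Leu gene C14B9.t2 followed at rank 62 (ranks 66 and 79) and the tRNA-Met gene T15B12.t1 at rank 63 (ranks 83 and 72). Further tRNA genes among the 20 strongest regions on III had the summit upstream, the tRNA-Arg gene F56F3.t1 at rank 93 by 23 bp (ranks 42 and 130) and the tRNA-Ser gene K11H3.t2, in twk-48, at rank 103 by 39 bp (ranks 120 and 100). C56G7.t1 had it 29 bp upstream and T22F7.t1 4 bp upstream. Past the gene lay the summits at F22B7.t3 and Y92C3A.t2, 106 and 203 bp from the 5' end. Over the 28 genes the median summit was 28 bp downstream of the 5' end, with quartiles at 8 and 42 bp. Genes lying within a protein-coding gene had a region in 18 of 42 cases (42.9%) and the others in 10 of 22 (45.5%). By amino acid, all 3 tRNA-Met and all 3 tRNA-Asn genes on III had a region, against 1 of 6 tRNA-Gly, 1 of 5 tRNA-Arg, 1 of 5 tRNA-Pro and neither of the 2 tRNA-Val genes. Over all chromosomes these classes differed less, with 10 of 20 tRNA-Met (50%) and 7 of 20 tRNA-Asn genes (35%). The others had 23 of 55 tRNA-Gly (41.8%), 17 of 44 tRNA-Arg (38.6%), 13 of 42 tRNA-Pro (31.0%) and 13 of 31 tRNA-Val genes (41.9%). Nearby genes can share a region. F42A10.t1 and F42A10.t2 shared rank 71, whose summit lay inside the former and 143 bp upstream of the latter. Y22D7AL.t3 and Y22D7AL.t4 shared rank 78, whose summit lay inside the latter and 186 bp from the 5' end of the former, past its end.

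At 5 of the 7 snoRNA genes with a region the summit lay ahead of the gene. C05D2.15, in an intron of madf-11, had the strongest at rank 23 (ranks 48 and 17), 55 bp upstream of its 5' end. ZK643.9 followed at rank 96, 73 bp upstream (ranks 121 and 84), and T04A8.17 at rank 200, 44 bp upstream (ranks 438 and 158). In all 5 of the strongest the summit was upstream, by 28 to 73 bp. The other 2, H04D03.5 and C16A3.11, had it 33 and 78 bp inside. H04D03.5 overlapped no listed region of replicate 1 and ranked 352 in replicate 2.

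Of the 8 snRNA genes with a region, 4 belong to a family of near-identical copies. On III, 6 snRNA genes are 102 bp long, and 5 of them, C28A5.7, F54C8.8, F54C8.9, R07E5.16 and W05B2.8, have the same sequence, while F54C8.10 matches the others at 101 of 102 positions. Reads from inside such genes cannot be assigned to 1 copy, and the labels do not say how the authors treated them. Of these 6, 4 had a region. The strongest, rank 40 at W05B2.8 in dhc-4, had its summit 140 bp from the 5' end and thus just past the gene, with ranks 43 and 42. The summit at C28A5.7 (rank 258) lay 191 bp from the 5' end, while those at R07E5.16 (rank 682) and F54C8.9 (rank 932) lay 43 and 50 bp upstream. R07E5.16 ranked 9062 in replicate 1 and 468 in replicate 2. F54D8.7, of 101 bp and not compared in sequence with the family, had rank 167 with ranks 476 and 134.

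Of the 6 genes on III for the SL2 spliced leader RNA family, 3 had a region. sls-2.8 had rank 266 (ranks 165 and 308), sls-2.14 rank 1356 and sls-2.5 rank 2506, the last outside the 3000 strongest of both replicates. Their summits lay 118, 151 and 245 bp from the 5' end, in each case past the far end of the gene. The summit of rank 266 also lay 77 bp upstream of the protein-coding gene Y75B8A.23 and 419 bp upstream of tim-1. That region cannot be assigned to sls-2.8 alone. sls-2.16 and sls-2.18 lie close to sls-2.5, and sls-2.15 close to sls-2.14, and had none of their own. The 6 genes shared 74.8 to 92.9% of aligned positions with each other. Elsewhere the strongest SL2 gene was sls-2.4 on I, at rank 11. The others with a region were sls-2.9 on I and sls-2.1 and sls-2.2 on II. No region lay at sls-2.6 and sls-2.7 on I, at sls-2.3 on II, or at sls-2.10, sls-2.11, sls-2.12, sls-2.13 and sls-2.17 on IV.

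Among miRNA genes mir-80 had the strongest region, rank 270 (ranks 284 and 283), 158 bp upstream of the hairpin. mir-86 and mir-8211, in an intron of Y56A3A.7 within the dense window described above, had regions at ranks 435 and 994 that met the same region in each replicate (rank 278 in replicate 1 and rank 509 in replicate 2). mir-5549 had rank 1497, the region also counted for eef-1A.1, and mir-229 rank 1522.

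A group of noncoding genes outside these classes also had regions on III. The srpr genes, named for the RNA of the signal recognition particle, number 5 in the genome, and 4 lie on III. All 5 had a region within 200 bp in ranks 1 to 3000. They were noticed after the values had been seen. The share over all noncoding genes outside the classes was not counted, so this count has no background to be judged against. srpr-2.2, in klp-6, had rank 125 (ranks 146 and 121), srpr-1.1 rank 187 (ranks 179 and 188), srpr-2.1 rank 233 (ranks 142 and 305) and srpr-1.2 rank 637 (ranks 1445 and 577). srpr-3, on V, had rank 1086 (ranks 4134 and 1275). The 4 copies on III shared 94.0 to 99.0% of aligned positions with each other and 81.7 to 82.5% with srpr-3, so reads may be shared between copies. In 3 of the 4 on III the summit lay inside the gene, while that of srpr-1.1 lay 441 bp from its 5' end, beyond its far end and within pals-26.

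Regions with none of the features made up 306 of the 570 (53.7%): 124 in introns, 88 between genes, 70 in coding exons and 24 in UTR exons. They were weaker on the whole, with a median rank of 1823 against 1423 for promoters and 339 for tRNA genes. The strongest was rank 19 in an intron of M01F1.8 (signal 511, from 130 and 382 in replicates 1 and 2, ranks 41 and 16). Rank 75 lay in an intron of tba-7, an alpha-tubulin gene, over the unclassified noncoding genes T28D6.10 and T28D6.13 (ranks 101 and 75). The srpr regions of ranks 125, 187 and 233 came next. Rank 256 lay in an intron of zfp-1, encoding an AF10-like zinc finger protein (ranks 214 and 303), rank 259 in K01F9.2 (161 and 341), rank 318 in aakg-1 (406 and 339) and rank 329 in lit-1, the Nemo-like kinase gene (289 and 367). Rank 264, between genes, ranked 2751 in replicate 1 and 174 in replicate 2.

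Of the 570 regions, 264 (46.3%, interval 42.2 to 50.5%) met a region among the 3000 strongest of both replicates. Over all chromosomes the share was 43.7%, and without III it was 43.1%. Since both replicates went into the pooled list, this describes how the ranking arose and is no independent check. Replicate 2 matched the pooled order more closely: 458 members (80.4%) were in its 3000 strongest, against 340 (59.6%) in replicate 1. In 194 cases replicate 2 alone placed the region there, in 76 replicate 1 alone, and in 36 neither did. All 570 overlapped some region of replicate 2 by at least 1 bp, and 554 some region of replicate 1. The median rank was 2007 in replicate 1 and 1429 in replicate 2, against 2103 and 1497 for the regions of the other chromosomes.

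The pooled signal of a member was close to the sum of its 2 replicate signals, with a median ratio of sum to pooled of 1.00 (interquartile range 0.977 to 1.04). The signal in replicate 2 was higher in 543 of the 554 members found in both, by a median of 2.23 times, and by 2.18 times on the other chromosomes. The scale of each list is not given, so this ratio describes the deposited numbers and says nothing of how strongly the protein was bound in either sample. With a sum of this kind, the larger numbers of replicate 2 weigh more in the pooled ranks. Overlapping members meet the same replicate region, as did 94 of the 570 in replicate 1 and 95 in replicate 2.

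**Figure D5:**
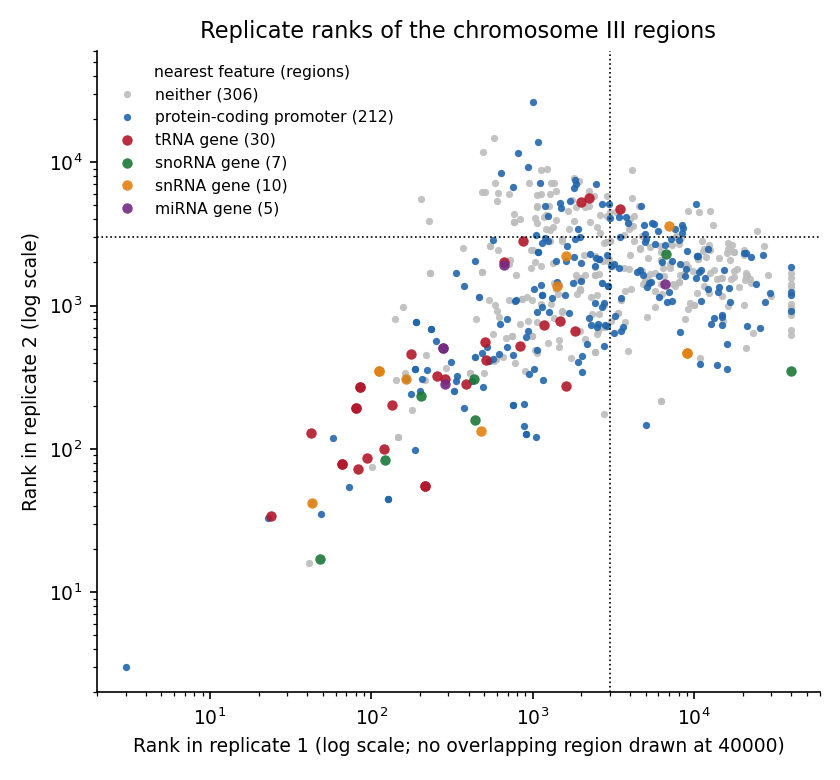
Rank in replicate 1 (x axis, log scale) against rank in replicate 2 (y axis, log scale) for the 570 regions, coloured by nearest feature; dotted lines mark rank 3000, and the 16 regions with no overlapping region in replicate 1 are drawn at 40000. Most tRNA regions (27 of 30) lie in the lower left, within rank 3000 of both, and the upper left and lower right hold regions placed there by 1 replicate only.

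Agreement between the replicates differed with the kind of region, and so did pooled rank. Median pooled ranks on III were 217 at snoRNA genes, 339 at tRNA genes, 512 at snRNA genes, 1423 at promoters and 1823 with no feature. Agreement at like rank was not tested. Within the 3000 strongest of both were 27 of 30 regions at tRNA genes (90.0%), 5 of 7 at snoRNA genes, 7 of 10 at snRNA genes, 105 of 212 at promoters (49.5%) and 116 of 306 with no feature (37.9%). On the other chromosomes the shares were 81.3% at tRNA genes, 40.1% at promoters and 34.2% with no feature. By position on III, the share was 37.8% on the left arm, 47.4% in the centre and 50.6% on the right arm.

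The summits were richer in G and C on average than their surroundings, with wide overlap. The 101 bp windows at the members had a mean G+C content of 44.2% ± 9.15 (SD over 570 windows), against 45.0% on the other chromosomes. The 1140 windows centred 500 bp to each side had 35.9% ± 8.99 (SD), and all windows of III 35.7% ± 8.90. The means at and beside the summits thus differed by less than 1 SD of single windows. Summits of ranks 1 to 642 had 48.0% and those of ranks 1501 to 3000 had 42.8%. G+C content thus moved with rank, and its part in the signal was not tested.

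The words shown in capitals in the windows above were found on both strands. AGCGCG shares 5 letters with the word GCGCGC when overlapping, as CGAACC does with the word GAACCC, and GCGCGC reads the same on both strands. At least 1 of the 3 words rich in GC, that is AGAGCG, the word AGCGCG or the word GCGCGC, was in 13.2% of the windows on III and 13.0% on the other chromosomes, against 3.42% of the windows to each side and 3.06% of all 101 bp windows of III. On III it was in 27.5% of the windows of ranks 1 to 642, 9.21% of ranks 643 to 1500 and 9.40% of ranks 1501 to 3000. At promoters away from small RNA genes GCGCGC was in 9.91% of the windows, against 0.756% of all windows of III. At tRNA genes AGAGCG was in 10 of 30 windows (33.3%) and CGAACC in 15 of 30, against 1.61% and 1.78% of all windows of III. On the other chromosomes the shares at tRNA genes were 20.9% and 36.6%. The reverse complement of CGAACC is part of the internal promoter element of tRNA genes known as the B box. A window that covers a tRNA gene can thus hold this word as gene sequence. Because tRNA genes without a region were not counted, these shares have no background of their own class. At the 306 regions with no feature, 3.92% held AGCGCG and 3.59% held CGAACC. Centre and arms had similar shares, 13.5% and 12.8% for the same set of 3 words.

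At unc-119, the gene mutated in the strain, which lies at chrIII:10902641-10908935, no member lay within the gene or 5 kb to either side. The strongest of 5 listed regions there ranked 5022, with a signal of 76.7.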

How the data were processed

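Each of the 2 samples, biological replicates of a single group, is a ChIP-seq library of whole early embryos. Per the file headers and the labels, the authors deposited lists of regions on ce10 and ce11 for each replicate, for the pooled reads and for an IDR-thresholded set. Each deposited list gives coordinates, a summit, the authors' signal value and, as the authors computed it, the −log10 of a q value. No source used here gives the aligner, the peak caller, the control, the scale of the deposited signal, the IDR threshold or read totals, so depth is unknown. How repeated sequences were mapped, which bears on tRNA, snRNA and srpr copies, is not given either.

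Regions were ranked by falling pooled ce11 signal, and ranks 1 to 3000 on chromosome III were kept. No region ended beyond its WBcel235 chromosome (0 regions). Genes came from the Ensembl release 115 annotation, and names of noncoding genes and tRNA products from RefSeq, which gave a product for 607 of 612 tRNA genes. A promoter ran from 1000 bp before to 300 bp after a 5' end, small RNA genes were extended by 200 bp, and a replicate rank is that of the strongest region overlapping by at least 1 bp. Shares carry exact (Clopper-Pearson) 95% intervals. The genes named were the 20 strongest regions on III, the 25 genes with the strongest promoter summits away from small RNA genes, the 3 strongest of each small RNA class and list members with a region. The members, the gene lists and the 6-letter words were chosen with earlier results of these data known, so no test was made. Code was checked on planted regions. Tools were Python 3.11.15, numpy 2.4.6, pandas 2.3.3, scipy 1.17.1, biopython 1.88, matplotlib 3.10.9. Alternatives were other rank limits, the IDR list, each replicate alone, other promoter and small RNA distances, joined summits and the ce10 list.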

Additional observations from a re-analysis of the deposited data

How the results depend on the processing

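The share on III stayed between 18.1 and 19.97% under all 8 alternatives tried, including the ce10 list (18.7%), and was 18.6 to 19.5% in the replicates alone. The share in the centre stayed within its interval except for a centre of 33.3 to 66.7% of the length, which held 32.1%; in the replicates alone it was 49.4 to 49.8%. Promoters held 54.2% with noncoding 5' ends added, 25.09% with a window from 500 bp before to 100 bp after, 47.5% in the IDR list and 34.3 to 40.3% in the replicates alone. Small RNA genes held 13.97% of ranks 1 to 1500, 5.41% of ranks 1 to 6000 and 24.2% of the IDR list, with 7.85 to 8.80% in the replicates alone. Membership in both replicates was 28.1% at rank 1500 of each, 66.8% at rank 6000, 31.4% with replicate summits within 100 bp, and 59.6 to 80.4% asking for 1 replicate only. Genes with a promoter region were 7.77% giving each summit to the nearest 5' end, 6.17% with the narrower window, 5.68% at rank 1500, 16.6% at rank 6000, 3.03% in the IDR list and 8.41 to 10.6% in the replicates alone. Regions per 100 genes were 10.3 at rank 1500, 42.7 at rank 6000, 4.55 in the IDR list, 19.8 with summits joined, and 21.1 to 22.2 in the replicates alone. Counts change with list length by construction; other causes were not tested. No paired analysis was possible because the study has a single group. Read depth was not given, so what it limits is unknown.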
